A study of Caenorhabditis elegans with 4 samples.

Results

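Potassium channel genes were examined in whole first-stage (L1) larvae of *C. elegans*, in the wild-type strain N2 and in *pry-1(mu38)*. *pry-1* encodes an Axin, a scaffold that holds WNT signaling in check, and *mu38* is a nonsense allele that leaves the pathway constitutively active. Each strain was represented by 2 RNA-Seq libraries from larvae grown at 20 °C and synchronized by bleaching, and the study describes them as biological replicates. The members were taken by name: every row of the count table called *twk*, *kqt*, *kvs*, *slo*, *irk*, *shk*, *shl*, *shw* or *kcnl* with a number, together with *egl-2*, *egl-23*, *egl-36*, *exp-2*, *sup-9*, *unc-58*, *unc-93*, *unc-103* and *sup-10*. This gave 60 of 19913 genes. The naming rule uses no measured value, though the family was chosen with earlier results of these data known. Of these, 44 belong to the two-pore channels, 4 to the voltage-gated channels (the Shaw-type *egl-36* and *shw-3*, with *exp-2* and *kvs-1*), 3 to the KCNQ kind, 2 to the EAG and ERG kind, 2 to the SLO channels and 3 to the inward rectifiers. The other 2, *unc-93* and *sup-10*, encode membrane proteins that act with the two-pore channel SUP-9 and form no pore themselves. No row carried the name *shk*, *shl* or *kcnl*, because those genes stand in the table under sequence names.

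Potassium channels let potassium leave the cell and so pull the membrane back to rest. Two-pore channels are open near the resting potential and set how easily a neuron or muscle is excited. Voltage-gated, EAG, ERG and KCNQ channels open on depolarization and end an action potential, SLO channels open on depolarization together with ions such as calcium, and inward rectifiers pass current best near rest. The nematode genome carries an unusually large family of two-pore channels, many of them expressed in few neurons or in muscle. Several of the genes were found through mutants with defects in egg-laying (*egl*), coordinated movement (*unc*) or defecation (*exp*).

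Each library held from 27741375 to 33230854 counts assigned to genes. The targeted gene, *pry-1*, had 1926 and 2048 counts in the N2 libraries against 3812 and 3471 in the mutants, or 0.78 on the log2 scale (standard error 0.17). A nonsense allele leaves the gene in place, so these counts do not check the genotype. The N2 libraries differed from each other more than the mutant libraries did. On the log2 scale the difference between the N2 libraries had an SD of 0.801 over the 15101 genes tested, against 0.457 between the *pry-1(mu38)* libraries. That spread does not show which N2 library is the unusual one. N2 replicate 2 was the highest library for 49 of the 57 tested members (86%), against 39.6% of all tested genes. The main values are therefore given with and without N2 replicate 2. Leaving that library out does not mark it as the faulty one, and the median over the members is also given without N2 replicate 1. Levels are in CPM, the counts of a gene per 1000000 counts of a library after scaling of the library sizes, and log2 ratios, or log2 fold changes, are of *pry-1(mu38)* (the mutants) over N2.

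The 60 genes spanned a wide range of levels in L1 larvae. Genes can be ranked only per length, so CPM was divided by the length in kb of the longest annotated transcript. The two-pore channel gene *twk-8* was the highest, with 77.7 and 90.8 CPM per kb in N2 replicates 1 and 2 and 76.2 and 74.3 in *pry-1(mu38)* replicates 1 and 2. The next was *twk-18*, which encodes a two-pore channel of body wall muscle whose gain-of-function alleles paralyse the animal at high temperature, with 68.5, 76.9, 60.7 and 61.7 CPM per kb in the same order. The ERG channel gene *unc-103*, which restrains vulval and sex muscle excitability, followed at 49.8, 68.1, 44.2 and 43.1 CPM per kb. These 3 genes kept this order in each of the 4 libraries, although the ranges of neighbouring genes over the libraries overlapped.

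The ranks below were less distinct. *twk-43* had 25.9, 41.3, 32.1 and 32.1 CPM per kb. The large-conductance channel gene *slo-2* had 33.1, 42.2, 26.0 and 28.7, and *slo-1*, whose channel limits transmitter release at synapses, had 30.1, 42.3, 23.6 and 25.4. The ranges of these 3 genes over the 4 libraries overlapped, so their order is not resolved. Together the 6 highest genes made up from 35.7% to 39.3% of the summed level per kb of the 60 genes in a library. The median gene stood at 8.18 CPM per kb, 28 genes had at least 10 and 8 had less than 1. The lowest were all two-pore genes: *twk-20*, *twk-22*, *twk-26*, *twk-36*, *twk-37*, *twk-4*, *twk-44* and *twk-6*.

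**Figure D1:**
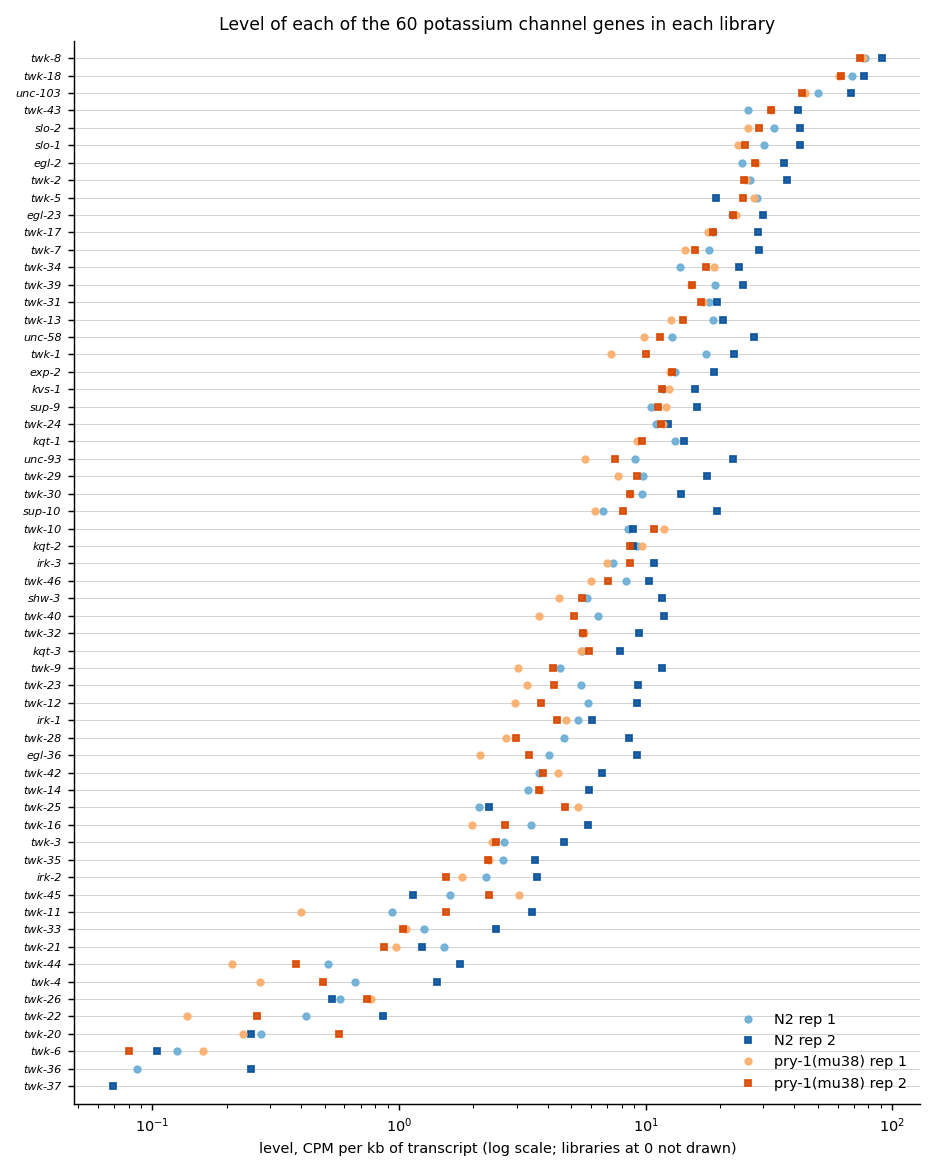
Level of each of the 60 genes in CPM per kb of transcript (log axis), ordered by the mean, with 1 point per library: N2 in blue, *pry-1(mu38)* in orange, replicate 1 as circles and replicate 2 as squares. *twk-8* at a mean of 79.7 and *twk-18* at 67.0 lead. The N2 replicate 2 point is the rightmost for 49 of the 57 tested members (86%), where it was the highest library for 39.6% of all tested genes.

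Most potassium channel genes had a lower level in *pry-1(mu38)* than in N2, and much of that difference came from N2 replicate 2. Of the 60 genes, 57 passed the filter on low counts. A log2 fold change below 0 was found for 50 of them (87.7%), where 51.6% of all tested genes were below 0, and the median was -0.45 against -0.02 over all tested genes. Without N2 replicate 2, 38 of the 57 were below 0 (51.3% of all tested genes) and the median was -0.17. Without N2 replicate 1 the number was 50 (49.3% of all tested genes) and the median -0.64. N2 replicate 2 was above N2 replicate 1 in 51 of the 57 (49.6% of all tested genes), with a median log2 difference of 0.55, while between the mutant libraries the median difference was 0.03. In 35 genes the mutant libraries were each lower than either N2 library (28% of all tested genes) and in 4 each was higher (29.1% of all tested genes). In whole-animal RNA a smaller number of channel-expressing cells and less RNA per cell cannot be told apart.

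None of the 57 passed an adjusted p of 0.05 (edgeR, quasi-likelihood, Benjamini-Hochberg over all tested genes), a threshold that 0.00662% of genes passed. With p under 0.05 before adjustment, 14 members had a lower level (8.23% of all tested genes were called in that direction) and 2 a higher level (5.93%), and the adjusted p was 0.345 for each of these 16 genes. DESeq2 called 2 members, *twk-1* as lower and *twk-25* as higher (3.72% of all genes with an adjusted p were called), and the same 2 were called after quantile normalization (3.64%). The exact test of edgeR called 1, *twk-1* (1.88%). Without N2 replicate 1, quasi-likelihood called 38 (38.9%), and without mutant replicate 2 it called 1, *twk-11* (3.71%). The count of 14 lower genes depended on the libraries and their scaling, and was 7 without the scaling of library sizes by TMM, the trimmed mean of log ratios (6.85%). It was 45 without N2 replicate 1 (27.3% of all tested genes), 8 without N2 replicate 2 (11.5%), 1 without mutant replicate 1 (3.82%) and 11 without mutant replicate 2 (8.95%). The count of 2 higher genes became 3 without N2 replicate 1 (26.3% of all tested genes), 4 without N2 replicate 2 (10.6%), and 0 when either mutant library was dropped (1.32% for replicate 1 and 1.99% for replicate 2). With 2 libraries against 2, the smallest p of an exact two-sided permutation test over samples is 0.333, and edgeR's p-values instead draw on a spread estimated across genes.

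**Figure D2:**
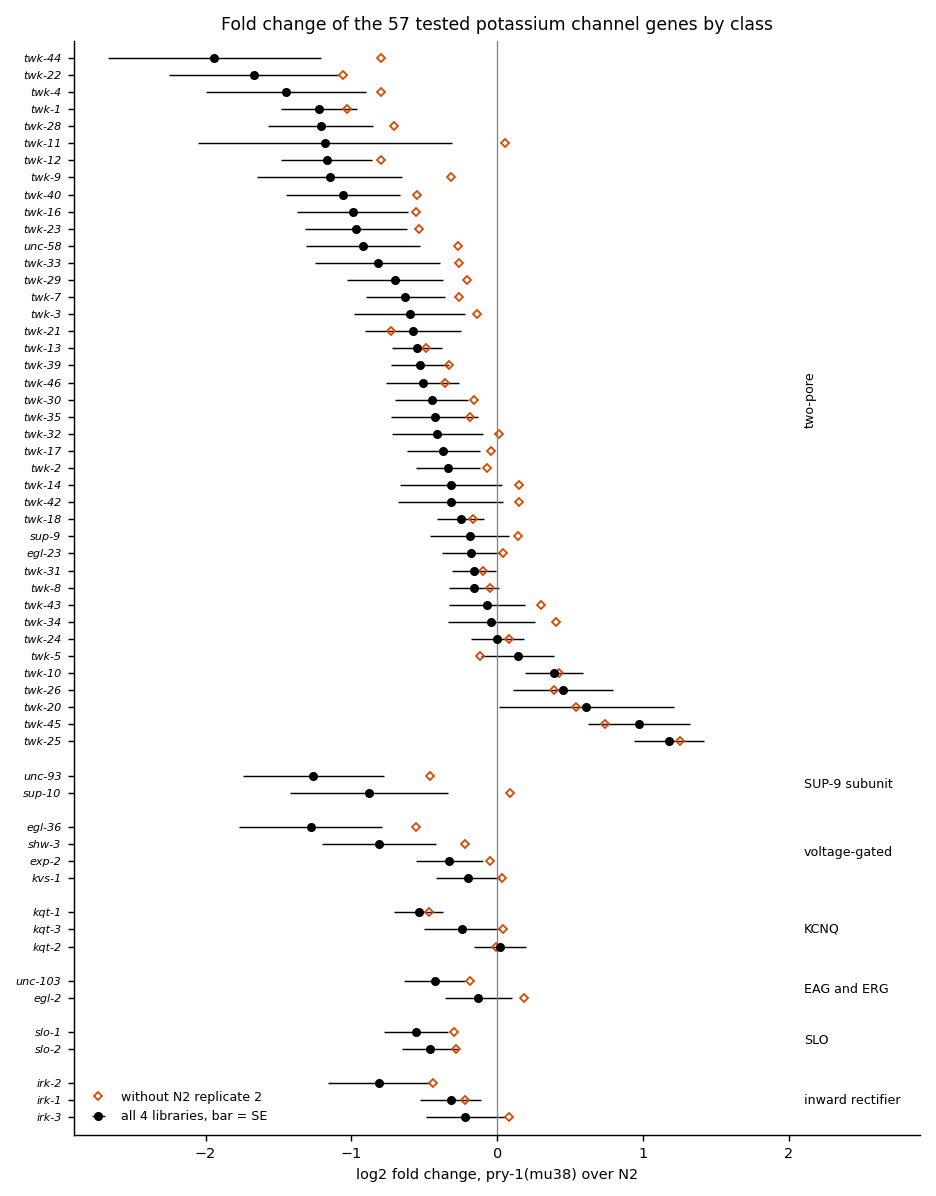
Log2 fold change of *pry-1(mu38)* over N2 for the 57 tested genes, grouped by channel class, with all 4 libraries (black points, bars are standard errors) and without N2 replicate 2 (open diamonds). Of the black points 50 lie left of 0, and of the diamonds 38.

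With each library left out in turn, 36 of the 57 genes stayed below 0 and 4 stayed above 0 (34.2% and 33.5% of all tested genes). The other 17 changed sign, and the remaining share over all tested genes was of similar size. In 14 of these 17 the value went from below 0 to above 0 without N2 replicate 2; *egl-2*, *egl-23*, *kqt-3*, *kvs-1*, *sup-9*, *sup-10* and *twk-43* were among them. A difference of at least 1.5-fold in one direction, whichever library was left out, was found for 8 genes: *twk-1*, *twk-4*, *twk-12*, *twk-22*, *twk-28* and *twk-44* on the lower side and *twk-25* and *twk-45* on the higher side. These 8 were 14% of the tested members, and 12.7% of all tested genes met the same criterion, so this share is close to the background. All 8 encode two-pore channels, as do 41 of the 57 tested members.

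Two-pore channels made up 44 of the 60 members and included both the largest lower and the largest higher values. Of the 41 tested, 35 were below 0 with a median of -0.45, or 27 with a median of -0.16 without N2 replicate 2. *twk-25* had 130 and 173 counts in the N2 libraries against 388 and 342 in the mutants, which are 4.76 and 5.23 CPM against 12 and 10.7. Its mean level was 4.99 ± 0.333 CPM in N2 larvae against 11.4 ± 0.976 in the mutants (SD, n = 2 each). The groups were far apart compared with the spread within each. The log2 ratio of *twk-25* was 1.18 (standard error 0.24, edgeR quasi-likelihood adjusted p = 0.345, DESeq2 adjusted p = 0.0146), and leaving out any single library gave from 1.09 to 1.27. *twk-45* had 2.89 and 2.05 CPM in the N2 libraries against 5.53 and 4.15 in the mutants, a log2 ratio of 0.97 (standard error 0.35). For *twk-45* the N2 libraries lay below both others, N2 replicate 2 was the lowest of the 4, and the value was 0.74 without it. Both *pry-1(mu38)* libraries were also above both N2 libraries for *twk-10* and *twk-26*, which complete the 4 such genes. *twk-10* had 11.5 and 12.1 CPM in N2 larvae and 16.2 and 14.7 in mutants, a value of 0.39 (standard error 0.20). *twk-26* had 1.21 and 1.12 CPM against 1.61 and 1.56, a value of 0.45 (standard error 0.34) that rests on at most 52 counts in a library.

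On the lower side, *twk-1* had the smallest p. Its counts were 795 and 1244 in the N2 libraries against 385 and 532 in the mutants, or 29.1 and 37.6 CPM against 12 and 16.6. The level in N2 was 2.34 times that in *pry-1(mu38)*, a log2 ratio of -1.22 (standard error 0.26), and the adjusted p was 0.345 by quasi-likelihood in edgeR, 0.0123 by DESeq2 and 0.0331 by the exact test of edgeR. The value of *twk-1* was from -1.48 to -1.01 with each library left out, so it did not depend on N2 replicate 2. For *twk-12*, with 12.7 and 20.1 CPM in the N2 libraries against 6.43 and 8.20 in the mutants, the log2 ratio was -1.17 (standard error 0.31), and -0.80 without N2 replicate 2. For *twk-28* the levels were 8.27 and 15.2 CPM in the N2 libraries against 4.81 and 5.30 in the mutants, with a log2 ratio of -1.21 (standard error 0.36), and -0.71 without N2 replicate 2. In both genes N2 replicate 2 was much the highest library, and N2 replicate 1 still lay above both *pry-1(mu38)* libraries.

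The 3 rarest genes among those with an unadjusted p under 0.05 had the largest fold changes. *twk-44* had 31 and 129 counts in the N2 libraries against 15 and 27 in the mutants, a log2 ratio of -1.94 (standard error 0.73). *twk-22* had 31 and 77 counts against 12 and 23, a value of -1.67 (standard error 0.58). *twk-4* had 62 and 162 counts against 30 and 54, a value of -1.45 (standard error 0.55). In each of the 3 the N2 libraries differed from each other by more than 2-fold, and without N2 replicate 2 the log2 ratios were -0.80 for *twk-44*, -1.06 for *twk-22* and -0.80 for *twk-4*. By contrast *twk-13*, with 48.2 and 52.6 CPM in the N2 libraries against 32.5 and 36.4 in the mutants, had a smaller but tighter difference of -0.55 (standard error 0.17), and -0.49 without N2 replicate 2. *twk-39* had 38.8 and 50.5 CPM against 30.8 and 31.2, a value of -0.53 (standard error 0.20), and *twk-40*, whose channel dampens the motor circuit, had 9.11 and 16.9 CPM against 5.25 and 7.27, a value of -1.06 (standard error 0.39). The values of *twk-16* and *twk-23* were -0.99 (standard error 0.38) and -0.97 (standard error 0.35). Without N2 replicate 2 these 4 genes had -0.33 (*twk-39*), -0.55 (*twk-40*), -0.56 (*twk-16*) and -0.54 (*twk-23*).

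The other two-pore genes that are high in level or known from mutants ranged from -0.92 to -0.07. *twk-18* had 133 and 149 CPM in the N2 libraries against 118 and 120 in the mutants, a log2 ratio of -0.25 (standard error 0.16). The groups did not overlap, but the gap between the nearest libraries was about as wide as the difference between the N2 libraries. *twk-7*, whose loss makes animals move more, had 39.8 and 63.6 CPM against 31.9 and 34.9, a value of -0.63 (standard error 0.27), which was -0.26 without N2 replicate 2. *twk-8*, the highest gene, had 197 and 230 CPM against 193 and 188, a value of -0.16 (standard error 0.17), and *twk-43* had -0.07 (standard error 0.26). For *egl-23*, in which gain-of-function alleles impair egg-laying, the levels were 50.9 and 68.3 CPM against 53.1 and 51.8, so N2 replicate 1 lay below both *pry-1(mu38)* libraries, and the value was -0.18 (standard error 0.20). *unc-58*, in which unusual alleles cause rigid paralysis, had 29.0 and 62.5 CPM against 22.3 and 25.9, a value of -0.92 (standard error 0.39) that was -0.27 without N2 replicate 2.

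Of the 3 members left out by the filter, *twk-36* had 4 and 14 counts in N2 and 0 in both *pry-1(mu38)* libraries. Set against a floor of 3 counts over the *pry-1(mu38)* group, its level in N2 was 6.27 times that floor. This ratio takes the N2 counts as exact, and 14 of the 18 came from N2 replicate 2. The ratio was 3.06 without N2 replicate 2, 3.09 without mutant replicate 1 and 3.18 without mutant replicate 2. *twk-37* had 0 and 3 counts in N2 and 0 in both *pry-1(mu38)* libraries, and *twk-6* had 4 and 4 counts against 6 and 3. At such counts no difference was detectable for *twk-37* or *twk-6*.

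The SUP-9 complex joins a two-pore channel with the accessory proteins UNC-93 and SUP-10, and altered forms of it impair muscle contraction. *sup-9* itself had 11.8 and 18 CPM in the N2 libraries against 13.5 and 12.6 in the mutants, a log2 ratio of -0.19 (standard error 0.27). Its *pry-1(mu38)* libraries lay between the N2 libraries. *unc-93* had 19.6 and 48.9 CPM against 12.2 and 16.3, a value of -1.26 (standard error 0.48) with an unadjusted p of 0.0463 in edgeR's quasi-likelihood test across all genes, and *sup-10* had 8.67 and 25.2 CPM against 8.04 and 10.4, a value of -0.88 (standard error 0.54). N2 replicate 2 exceeded N2 replicate 1 by 1.32 on the log2 scale for *unc-93*, by 1.54 for *sup-10* and by 0.61 for *sup-9*. Without that library the values were -0.46 for *unc-93*, 0.09 for *sup-10* and 0.14 for *sup-9*, so 2 of the 3 parts of the complex changed sign. Without N2 replicate 1 instead, the values were -1.78, -1.45 and -0.47 in the same order.

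**Figure D3:**
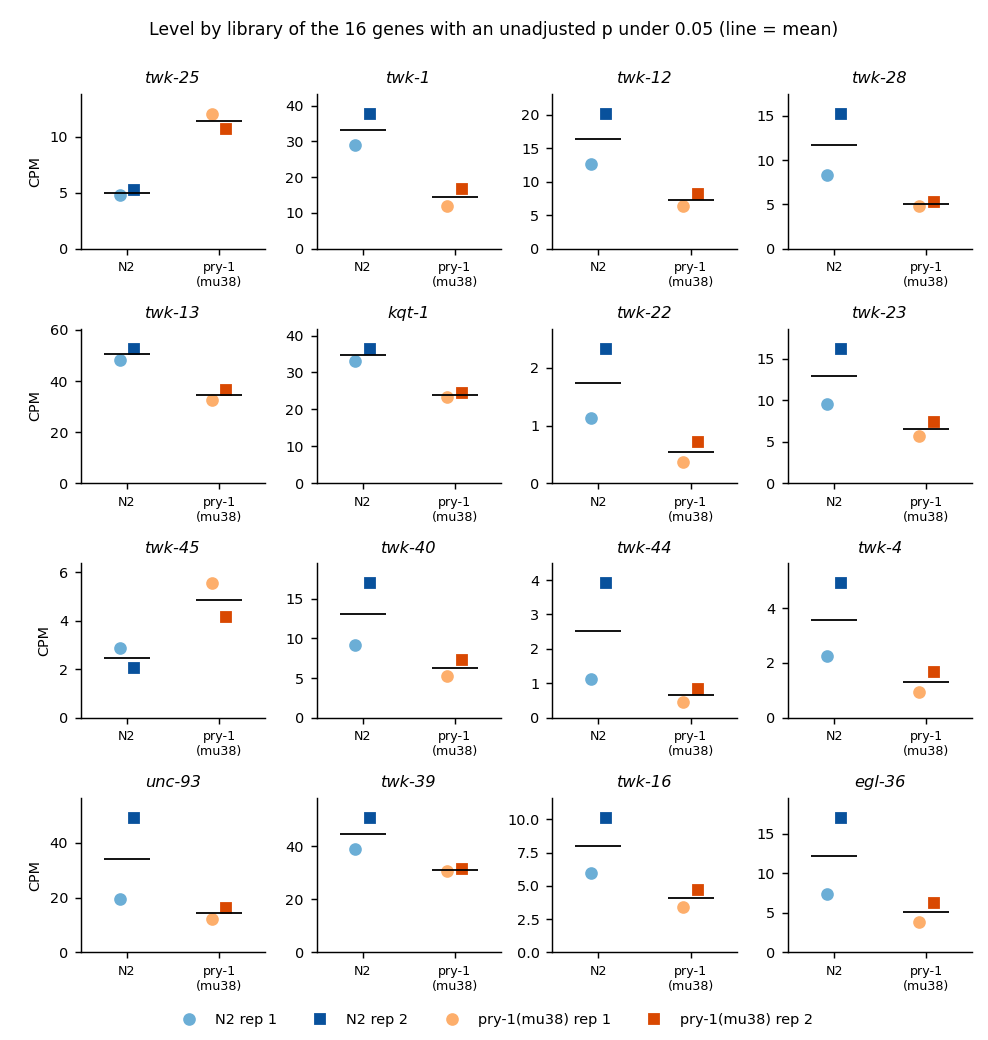
CPM by library (axes from 0) of the 16 genes with an unadjusted p under 0.05, N2 on the left and *pry-1(mu38)* on the right of each panel, with a line at each mean of 2 libraries. *twk-25* and *twk-45* are higher in *pry-1(mu38)*, at means of 11.4 and 4.84 CPM against 4.99 and 2.47 in N2, and the other 14 are lower.

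All 4 voltage-gated members were below 0. *egl-36*, a Shaw-type channel gene known from egg-laying mutants, had 204 and 563 counts in the N2 libraries against 126 and 199 in the mutants, a log2 ratio of -1.28 (standard error 0.49, unadjusted p = 0.0499 in edgeR's test across all genes). *shw-3*, of the same type, had -0.81 (standard error 0.39). *exp-2*, whose channel repolarizes pharyngeal muscle, had 56.2 and 81.3 CPM against 54 and 55.1, a value of -0.33 (standard error 0.23). N2 replicate 1 and the *pry-1(mu38)* libraries were nearly level for *exp-2*. *kvs-1*, expressed in chemosensory neurons, had -0.20 (standard error 0.22). Without N2 replicate 2 the values were -0.56 for *egl-36*, -0.22 for *shw-3*, -0.05 for *exp-2* and 0.03 for *kvs-1*.

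The KCNQ genes differed among themselves. *kqt-1* had 33.2 and 36.4 CPM in the N2 libraries against 23.4 and 24.5 in the mutants, a log2 ratio of -0.54 (standard error 0.17, unadjusted p = 0.026 in edgeR's test across all genes). The spread within each strain was small, and leaving out any single library gave from -0.60 to -0.47. *kqt-2* had 21.2 and 20.4 CPM against 22.3 and 19.9, a value of 0.02 (standard error 0.18), and *kqt-3* had 11.8 and 16.9 CPM against 11.7 and 12.6, a value of -0.24 (standard error 0.26). The strains overlapped for *kqt-2* and *kqt-3*.

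The EAG channel gene *egl-2* had 81.8 and 121 CPM in the N2 libraries against 93 and 92.3 in the mutants, a log2 ratio of -0.13 (standard error 0.23) that was 0.18 without N2 replicate 2. *unc-103* had 155 and 212 CPM against 137 and 134, a value of -0.43 (standard error 0.21), which was -0.19 without N2 replicate 2. The SLO genes had levels and log2 ratios near each other. *slo-1* had 114 and 160 CPM in the N2 libraries against 89.2 and 96.1 in the mutants, a value of -0.56 (standard error 0.22), and *slo-2* had 124 and 159 CPM against 97.7 and 108, a value of -0.46 (standard error 0.19). For both genes all 4 libraries kept the strains apart, and without N2 replicate 2 the values were -0.30 and -0.28. Of the inward rectifiers, *irk-1*, which acts in egg-laying neurons, had 12.9 and 14.7 CPM against 11.5 and 10.6, a value of -0.32 (standard error 0.21), and *irk-2* and *irk-3* had -0.81 (standard error 0.35) and -0.22 (standard error 0.27). The 3 inward rectifier genes were at -0.22, -0.44 and 0.08, in this order, without N2 replicate 2. The 24 tested members not singled out by the rule for named genes had values from -1.18 (*twk-11*) to 0.61 (*twk-20*). *twk-11* was at 0.05 without N2 replicate 2, and *twk-20*, with at most 22 counts in a library, at -0.17 without mutant replicate 2. *twk-11* had 5.31 and 19.6 CPM in N2 larvae and 2.27 and 8.73 in mutants, so both replicates 2 were above both replicates 1, and its standard error was 0.87.

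Another 14 potassium channel genes stand in the table under sequence names and so fell outside the rule. They include *shk-1* and *shl-1*, the Shaker and Shal channel genes, and the 4 small-conductance *kcnl* genes. All 14 were tested, 13 were below 0 (51.6% of all tested genes) and the median was -0.29. Without N2 replicate 2, 8 were below 0 (51.3% of all tested genes) with a median of -0.08. *shk-1* (row ZK1321.2) had 1269 and 1916 counts in the N2 libraries against 1691 and 1570 in the mutants, a log2 ratio of -0.04 (standard error 0.18). *shw-1* (row F14F11.1), the one with the smallest p, had 1594 and 2919 counts against 1270 and 1376, a value of -0.83 (standard error 0.25). Its p of 0.0209 in edgeR's test across all genes was the only unadjusted one under 0.05 among the 14. Of all tested genes, 8.23% were called as lower at that threshold. *kcnl-2* (row F08A10.1), a gene known from egg-laying, had 1660 and 3013 counts against 1597 and 1713, a value of -0.56 (standard error 0.24).

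Other genes of membrane excitability were compared with the potassium channel genes. The 9 calcium and sodium leak channel genes found in the table were all below 0 (51.6% of all tested genes), with a median of -0.50, or -0.15 without N2 replicate 2. With an unadjusted p under 0.05 in edgeR's test, 1 of them was lower (8.23% of all tested genes). The muscle calcium channel gene *egl-19* had 223 and 361 CPM in the N2 libraries against 201 and 213 in the mutants, a value of -0.50 (standard error 0.27). The beta subunit genes of the *mps* family, 3 of 4 tested, had a median of -0.24, and the 4 genes found for trafficking and localization of SLO-1 had -0.16, with 3 below 0. These medians were -0.20 and 0.03 without N2 replicate 2. Neither list had a gene with an unadjusted p under 0.05.

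Most markers of neurons and muscle were also higher in N2 replicate 2. It was above N2 replicate 1 for 9 of the 12 neuron, all 9 body wall muscle and all 4 pharyngeal muscle markers. The same held for 2 of the 3 tested germ line, 3 of the 6 intestine and 1 of the 5 epidermis markers. Median log2 differences between the N2 libraries were 0.46, 0.72, 1.64, 1.02, -0.01 and -0.64 in that order. Between the mutant libraries, replicate 2 over replicate 1, they were 0.06, -0.0, 1.37, 0.13, -0.06 and 0.41 in the same order. All 4 pharyngeal muscle markers were thus higher in replicate 2 of both strains, while 3 of the 9 body wall muscle markers were higher in mutant replicate 2. In N2 replicates 1 and 2 the 60 potassium channel genes summed to 1820 and 2510 CPM, and in *pry-1(mu38)* to 1650 and 1700. The 12 neuron markers summed to 3180 and 3720 CPM in the N2 libraries against 3210 and 3240 in the mutants; 9 of the 12 were below 0, at a median of -0.27. The 9 body wall muscle markers summed to 16800 and 29500 CPM in the N2 libraries against 16800 and 16900 in the mutants, and all 9 were below 0, at a median of -0.19. The 4 pharyngeal muscle markers in the table summed to 351 and 1040 CPM in the N2 libraries against 89.2 and 219 in the mutants, with all 4 below 0 at a median of -1.87. Each of these 25 markers had counts in all 4 libraries. Without N2 replicate 2 the medians were -0.11 for neurons, 0.16 for body wall muscle and -0.82 for pharyngeal muscle. The part of these markers in the values of the channel genes was not tested. Markers of intestine (6 tested, median -0.12), epidermis (5 tested, 0.01) and germ line (3 tested, -0.62) are shown for comparison in the plot of median positions. Their medians without N2 replicate 2 were -0.08, -0.12 and 0.11.

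**Figure D4:**
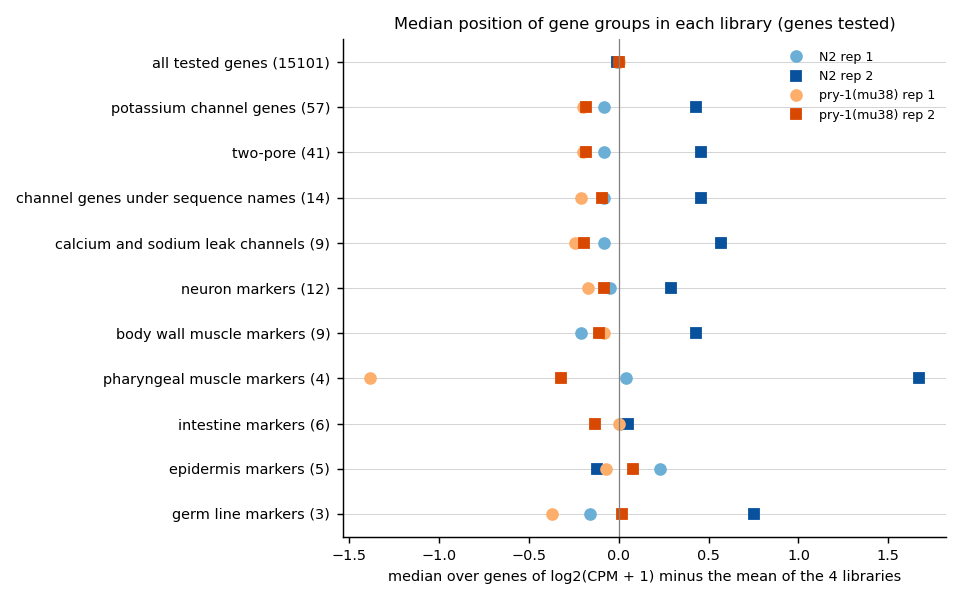
Median position of each group of genes in each library, as log2(CPM + 1) minus the mean of the 4 libraries, with the number of tested genes in brackets. N2 replicate 2 stands at 0.43 for the potassium channel genes and at 1.67 for the pharyngeal muscle markers, while the other 3 libraries lie from -0.20 to -0.08 for the potassium channel genes.

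The genes were matched by name to the annotation of build WBcel235, and all 60 were found. The X chromosome carried 20 of them (33.3%), where 14.1% of all matched genes are on X. All 20 members on X were tested and their median was -0.56, with 17 below 0, and the 37 tested members on autosomes had -0.43, with 33 below 0. Over the tested genes that could be matched, 1767 on X and 9717 on autosomes, the medians were -0.17 and -0.02. Without N2 replicate 2 the members had -0.27 on X and -0.12 on autosomes, against -0.05 and -0.01 over the matched genes. The only neighbouring pair of members was *twk-21* and *twk-22*, on X and on the same strand, with values of -0.58 (standard error 0.33) and -1.67 (standard error 0.58).

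Exons of 21 members overlap those of another protein-coding gene, on the opposite strand in each case but the pair of *twk-4* and *sym-2*. The library kit does not mark strand, so reads from such a stretch cannot be assigned to one gene of the pair. Among the members with an unadjusted p under 0.05, *twk-22* overlaps T01B4.3, which had a log2 ratio of -1.10, *twk-28* overlaps C52B9.10 at -0.64, *egl-36* overlaps R07A4.2 at -0.65, *unc-93* overlaps *madf-8*, which was not analysed here, and *kqt-1* overlaps *clec-266* at -2.64. The values of these 4 measured partners had the same sign as those of the members. For *twk-13* and its partner R04F11.2 the signs differed, with 0.26 for the partner, and *twk-4* lies on the strand of *sym-2*, which had 0.60. *unc-58* shares exons with W07E11.1, whose counts were 4920 and 6685 in the N2 libraries against 12107 and 11137 in the mutants, the opposite direction to *unc-58*. The part of these overlaps in the counts was not tested. *twk-25* and *twk-1*, the members that DESeq2 called, overlap no exon of another protein-coding gene in that annotation.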

How the data were processed

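Total RNA came from whole L1 larvae, with 2 libraries per strain. The authors deposited raw counts of reads for each gene, not normalized. Their methods describe trimming with cutadapt and trimgalore and mapping with Bowtie to ce6, whereas the series text names BWA; the counter, annotation and strand setting of the counts are not given in the sources used here. Quantile normalization, eXpress and DESeq are also described, but the counts are not quantile normalized. Summary lines (no feature, from 5.32% to 6.75% of reads; ambiguous; not unique, from 8.04% to 11.6%) were left out, and genes with near-identical copies are undercounted.

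Genes were filtered with filterByExpr (minimum count 10), library sizes were scaled by TMM (0.985 to 1.02), and *pry-1(mu38)* was compared with N2 by the quasi-likelihood test of edgeR 4.0.16 in R 4.3.3, with Benjamini-Hochberg adjustment over 15101 genes and a threshold of 0.05. Standard errors are the log2 fold change divided by the root of F. DESeq2 1.42.0, edgeR's exact test, other scalings and filters, a replicate block and each library left out in turn were alternatives. Tests were first run on simulated data whose spread between libraries was set below that of the real data. The simulation therefore does not show how the tests perform at the real spread. Members and lists were chosen with earlier results of these data known. Described by name are members with an unadjusted p under 0.05 (up to 15), the 6 highest per length and those with a role known from mutants. For *twk-16*, *twk-23*, *shw-3* and *kvs-1* the text gives only log2 ratios with standard errors, and for the rest also the level in each library. Any others named were chosen after their values were seen. Gene models of WBcel235 gave lengths and overlaps and served for no coordinates, since the reads were mapped to an older build. Searches of protein and promoter sequence were not made, as no sequence was used here. Plots used matplotlib 3.10.9 (Python 3.11.15).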

Additional observations from a re-analysis of the deposited data

How the results depend on the processing

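The number of members called was 0 in edgeR's quasi-likelihood test, 2 with DESeq2, 2 after quantile normalization and DESeq2, 1 in edgeR's exact test, and from 0 to 38 with each library left out, the 38 without N2 replicate 1, when 38.9% of all tested genes were called. The replicate numbers are shared by the strains, and the names of the count columns open with the same numbers. Nothing in the labels says what the opening number stands for or that the numbers pair the samples. Deviations from the group means correlated at 0.485 between same-numbered libraries over all tested genes. With the replicate block 15 members (26.3%) were called, against 15.4% of all tested genes. At an unadjusted p under 0.05, the 14 lower members became 7 without TMM scaling and 23 with the replicate block (17.6% of all tested genes), and from 1 to 45 with a library left out; the 2 higher members became from 0 to 4. The median log2 fold change was from -0.45 to -0.38 under the other scalings, tests, filters and the block, and from -0.64 to -0.17 with a library left out. The number below 0 was from 49 to 51 under those alternatives and from 38 to 51 with a library left out. Of the named genes, 7 changed sign, each without N2 replicate 2: with a library left out, *egl-2* was from -0.39 to 0.18, *egl-23* from -0.38 to 0.04, *kqt-3* from -0.47 to 0.04, *kvs-1* from -0.40 to 0.03, *sup-9* from -0.47 to 0.14, *sup-10* from -1.45 to 0.09 and *twk-43* from -0.36 to 0.30. The cause was not tested. By channel class the medians with a library left out were from -0.67 to -0.16 for two-pore, -1.61 to -0.19 for the SUP-9 subunits, -0.90 to -0.13 for voltage-gated, -0.47 to -0.01 for KCNQ, -0.51 to -0.01 for EAG and ERG, -0.71 to -0.29 for SLO and -0.47 to -0.22 for inward rectifier genes. The fits with a library left out assume that the lone library varies like the others.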
